A study of Rattus norvegicus with 54 samples.

Results

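The hearts compared here came from 8 WRF rats and 12 C rats out of 54 rats in all, selected on the measured levels of 2 genes, so that their libraries held little atrial and much muscle message. A library was kept when Myl7, the atrial myosin light chain, was below 100 fpkm (fragments per kilobase of transcript, scaled to the mapped fragments of each library) and Ckm, the muscle creatine kinase, was at 500 fpkm or more. All animals were male Wistar rats, wild type, 7 to 8 weeks old at the start, housed singly in 12 h of light and 12 h of dark for 5 weeks. C rats were left undisturbed with food and water at will. WRF rats were kept awake in slowly turning drums during weekday work hours in the light phase, with water at will and food only outside work. W rats did the same work with food always at hand, and 11 of the 18 passed the same selection. Hearts were taken on a day without work at ZT1, ZT5, ZT9, ZT13, ZT17, or ZT21 (hours after lights on), from separate animals. Both atria and ventricles of the frozen hearts were broken into small pieces for RNA, and the libraries differed in their atrial share. The comparison asks how hearts of rats that worked without food differ from those of undisturbed rats when libraries with much atrium are set aside.

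The heart is built of atria, thin-walled chambers that receive blood, and ventricles, which pump it out, and cardiomyocytes of each express their own myosin light chains and hormones. Ventricular cardiomyocytes are packed with mitochondria, which make most of their ATP by oxidizing fatty acids and pyruvate, and most mitochondrial proteins are made from nuclear genes on cytosolic ribosomes and then imported. Fibroblasts, endothelial cells, and macrophages make up much of the remainder, and fibroblasts lay down the collagen matrix.

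The 2 selecting genes set the limits of what could be compared. Myl7 ran from 2.29 to 21.3 fpkm in the kept C rats (median 9.76, n = 12) and from 3.37 to 97.0 fpkm in the kept WRF rats (median 11.4, n = 8). Just inside the limit lay WRF5 at 97.0 fpkm and WRF55 at 90.6 fpkm, and just outside it lay C28 at 143 fpkm. WRF51 passed the Myl7 limit at 20.2 fpkm but had only 31.5 fpkm of Ckm and was left out, whereas Ckm ran from 1160 to 2530 fpkm in the compared C rats and from 1371 to 2235 fpkm in the compared WRF rats. The kept C rats were spread evenly over the day, 2 at each time. The kept WRF rats were 2 at ZT1, 2 at ZT21, and 1 at each of the other times. The rat numbers of each group fall into 3 series, each with 1 rat per time: 6 of the 8 WRF rats were WRF1 to WRF6, 2 were WRF54 and WRF55, and none came from the series WRF41 to WRF62, while C rats came from C17 to C22 (3 rats), C25 to C30 (3 rats), and C33 to C38 (6 rats). Since every series belongs to 1 group, series and group cannot be told apart.

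**Figure D1:**
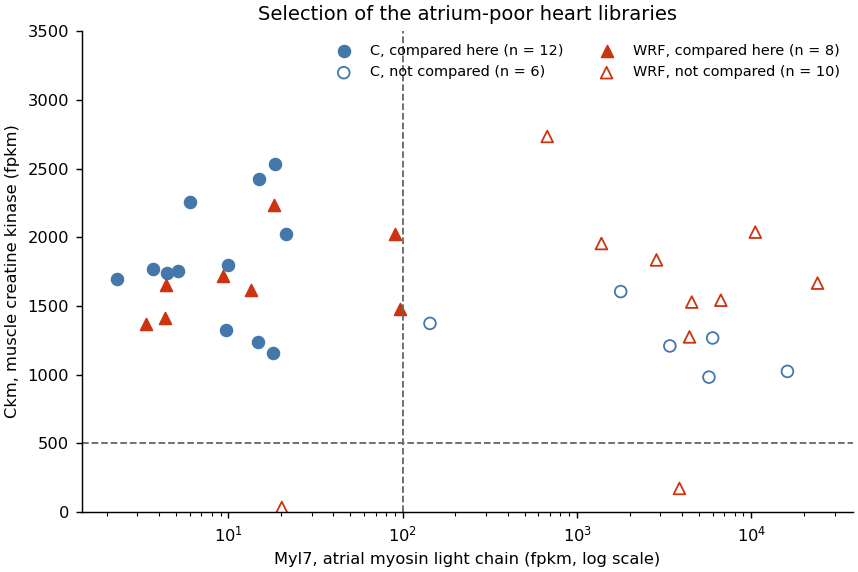
Ckm (fpkm, vertical) against Myl7 (fpkm, horizontal log scale) in the 18 C rats (circles) and 18 WRF rats (triangles), with dashed lines at the limits of 100 and 500 fpkm; filled symbols are the 12 C and 8 WRF rats compared. WRF5 and WRF55 lie just left of the Myl7 limit, apart from the other kept rats, which have at most 21.3 fpkm.

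Markers of other tissues differed among the kept libraries. Other atrial genes followed Myl7 only in part: Myl4 reached 51.3 fpkm in WRF5 but 7.42 fpkm at most in WRF54 and WRF55. The summed level of 15 atrial markers was 593 to 1305 fpkm in WRF rats and 643 to 1112 fpkm in C rats, given without a test since the rats were selected on Myl7. The liver markers, 12 of 13 measured, had a higher summed level in WRF rats (51.7 to 315 fpkm, median 167) than in C rats (33.2 to 297 fpkm, median 61.1), with 3 at an unadjusted p under 0.05. Alb, serum albumin, lay between 31.2 and 121 fpkm in WRF1 to WRF6, at 2.54 fpkm in WRF54 and 14.7 fpkm in WRF55, and between 0.385 and 106 fpkm in C rats. WRF55 carried fat transcripts: Adipoq, the adipocyte hormone adiponectin, was at 103 fpkm there and at most 0.364 fpkm in C rats. The summed level of 19 macrophage markers was 231 to 563 fpkm in WRF rats (median 318) and 153 to 615 fpkm in C rats (median 247), and 4 of them were higher at an unadjusted p under 0.05 (9.87% of all entries were). That number was 2 without WRF5 or without WRF55 and 0 without C33 to C38. In these libraries of mixed heart tissue more cells of a type and more RNA per cell cannot be told apart.

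Of 10257 entries tested, 22 (0.214%) were called higher and 3 (0.0292%) lower in WRF than in C rats, at an adjusted p of at most 0.05 in an exact two-sided rank-sum test with Benjamini-Hochberg adjustment. Arpp19 has 2 entries with the same values, which leaves 21 genes called higher and 3 called lower. The changes were small, 0.22 to 0.70 on the log2(fpkm + 1) scale, where 1 is a doubling. At an unadjusted p under 0.05 there were 1012 entries (9.87%) higher and 362 (3.53%) lower. The smallest adjusted p was 0.0456, just inside the limit, and was shared by all calls; limma (linear models with pooled variances) gave 0 calls on the same rats, with a smallest adjusted p of 0.0501 and 1410 entries at an unadjusted p under 0.05. Dividing each library by its median-of-ratios size factor or by its sum over all genes also left 0 calls, and turned the balance at an unadjusted p under 0.05 from 73.7% higher to 48.3% and 23.0% higher. The median difference over all entries moved from 0.04 to 0.01 and -0.08. The 24 genes kept their direction under both scalings, which their selection on the same rats made likely.

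Among the 24 called genes the 3 largest differences lay in Hspe1, Dnajc19, and Timm8b, whose products fold or import mitochondrial proteins. Hspe1, the mitochondrial chaperonin that caps Hspd1, was between 224 and 312 fpkm in WRF rats (median 272) and between 124 and 259 fpkm in C rats (median 162). All C rats but C20, at 259 fpkm, lay below every WRF rat. The difference was 0.70 ± 0.12 (log2, SE; n = 8 and 12; exact rank-sum p = 0.000111, adjusted p = 0.0456). Dnajc19, part of the motor that pulls proteins through the inner membrane, was 10.8 to 16.3 fpkm in WRF rats (median 13.7) and 6.66 to 11.6 fpkm in C rats (median 9.01), a log2 difference of 0.53 ± 0.10. Timm8b, a small chaperone of the intermembrane space, was 380 to 541 fpkm in WRF rats (median 475) and 243 to 408 fpkm in C rats (median 326), a log2 difference of 0.49 ± 0.10. Its paralog Timm8a1 was 39.8 to 52.6 fpkm against 29.6 to 42.1 fpkm, with medians of 48.3 and 35.6 fpkm. The ranges overlapped at their edges: C20 and C35 passed the lowest WRF rat in Dnajc19, C37 and C38 in Timm8b, and C20, C35, and C36 in Timm8a1.

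Hspe1 and Timm8b each start beside a partner gene that reads away from them, and the windows around their start sites are shown because both pairs share them. In RefSeq (build GRCr8; the fpkm were made on rn6) the window from 250 bases before to 50 after the start of Hspe1 lies on the plus strand at chr9:64084077-64084376 and shares 211 bases with the window of Hspd1 on the minus strand, with start sites 290 bases apart. The window of Timm8b lies on the plus strand at chr8:59850487-59850786 and shares 195 bases with that of Sdhd, an anchor subunit of respiratory complex II on the minus strand, with start sites 96 bases apart. Capitals mark CCGGAAG, the core bound by ETS factors, and its reverse complement, which overlap in the Hspe1 window.
Hspe1: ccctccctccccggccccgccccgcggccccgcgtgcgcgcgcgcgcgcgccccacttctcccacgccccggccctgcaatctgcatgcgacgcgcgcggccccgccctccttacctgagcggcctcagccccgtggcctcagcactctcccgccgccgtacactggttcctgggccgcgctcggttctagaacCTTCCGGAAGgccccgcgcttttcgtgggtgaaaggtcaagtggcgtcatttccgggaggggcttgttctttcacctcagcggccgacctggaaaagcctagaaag
Timm8b: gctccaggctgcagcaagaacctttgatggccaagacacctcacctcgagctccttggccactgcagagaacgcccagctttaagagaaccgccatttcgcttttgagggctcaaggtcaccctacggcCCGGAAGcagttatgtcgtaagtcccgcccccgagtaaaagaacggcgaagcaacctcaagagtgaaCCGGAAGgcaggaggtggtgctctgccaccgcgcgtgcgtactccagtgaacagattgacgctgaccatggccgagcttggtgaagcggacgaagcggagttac

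The partner genes were not called. Hspd1, the chaperonin barrel itself, was 140 to 177 fpkm in WRF rats (median 165) and 143 to 172 fpkm in C rats (median 149), a log2 difference of 0.11 ± 0.05 that was not called (exact p = 0.0252, adjusted p = 0.271) and became -0.03 after scaling by the sum. The ratio of Hspe1 to Hspd1 within a library, which no scaling touches, was 1.28 to 2.12 in WRF rats (median 1.67) and 0.791 to 1.51 in C rats (median 1.12). Sdhd was 356 to 478 fpkm in WRF rats and 325 to 419 fpkm in C rats, a log2 difference of 0.09 ± 0.07. The ratio of Timm8b to Sdhd had a median of 1.23 in WRF rats (0.855 to 1.46) and 0.860 in C rats (0.740 to 1.04). WRF54 and WRF55 lay between 0.855 and 0.896, inside the range of the C rats, and WRF1 to WRF6 up to 1.46, all above it. In the ratio of Hspe1 to Hspd1 the same 2 rats lay between 1.28 and 1.31, again inside the C range. WRF1 to WRF6 ran from 1.37 to 2.12 in that ratio, and their lowest value lay inside the C range too. These ratios were formed after Hspe1 and Timm8b had been called, and Sdhd lies outside the rule for named genes and was chosen after its values were seen, so they are given without a test.

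A RefSeq window was found for 20 of the 24 called genes, 17 of them called higher. CCGGAAG on either strand stood in 8 of these 17 (47.1%; Hdhd2, Tmem126a, Hspe1, Mpc2, Sf3b6, Ssbp1, Taf13, and Timm8b), in 18.6% of 7757 measured genes with a window, and in 9.22% of all 27457 windows. CACGTG, the E-box of clock factors, stood in 3 of 17 (Tmem126a, Commd3, and Timm8a1) and in 9.68% of measured genes. The NRF1 motif, named for a factor that controls respiratory genes and searched as a palindrome of 10 letters, stood in 1 of 17 (Mrpl32) and in 2.05%. No window of the 3 genes called lower held any of these letters. Such matches describe the sequence and say nothing about which factor is bound.

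Genes of pyruvate entry, iron-sulfur clusters, and electron transport were also called. Mpc2, a subunit of the mitochondrial pyruvate carrier, was 306 to 414 fpkm in WRF rats (median 363) and 227 to 337 fpkm in C rats (median 266), a log2 difference of 0.42 ± 0.09. Bola3 and Isca2, which help to make and insert iron-sulfur clusters, had medians of 61.3 and 58.3 fpkm in WRF rats and of 45.9 and 46.2 fpkm in C rats, with log2 differences of 0.42 ± 0.08 and 0.32 ± 0.06. Tmem126a, an assembly factor of complex I, was 25.3 to 34.01 fpkm against 19.1 to 26.3 fpkm, a log2 difference of 0.35 ± 0.07. Cycs, cytochrome c, was the only entry of 10257 (0.00975%) in which the groups did not overlap. It ran from 829 to 1022 fpkm in WRF rats and from 626 to 827 fpkm in C rats, a gap of a few fpkm and a log2 difference of 0.29 ± 0.07 (exact p = 1.59e-05, the smallest that 8 against 12 rats can give). In the atrium-containing libraries the Cycs difference was 0.22 ± 0.10. Over all 36 C and WRF rats, without selection, it turned to -0.06. Those include WRF51 and WRF62, which had only 31.5 and 170 fpkm of Ckm. WRF51 held 1419 fpkm of Ager, a lung marker, and WRF62 held 106 fpkm of Cd3e, a lymphocyte marker. The part of these libraries in the change was not tested. Cycs has many processed copies in the rat genome, and its reads may be split among them. Among the other called genes Mrpl32 encodes a protein of the large mitochondrial ribosomal subunit, and Ssbp1 coats single-stranded mitochondrial DNA. Their log2 differences were 0.26 ± 0.05 and 0.26 ± 0.07.

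The remaining genes called higher act elsewhere in the cell. Arpp19, which inhibits the phosphatase PP2A once it is phosphorylated, was 86.8 to 130 fpkm in WRF rats (median 95.8) and 53.5 to 87.1 fpkm in C rats (median 68.3), a log2 difference of 0.49 ± 0.09. WRF2 held its highest value, and only C20 and C37 passed the lowest WRF rat, WRF54. Hdhd2, a member of the haloacid dehalogenase family, was 10.4 to 14.6 fpkm against 6.95 to 10.4 fpkm, a log2 difference of 0.33 ± 0.07. The others were Emc2 of the ER membrane complex, Psma3l, a copy of a 20S proteasome subunit whose reads may be shared with its parent gene, Vps29 of the retromer, Commd3 of the Commander complex, Polr3d of RNA polymerase III, Sf3b6 of the U2 snRNP, Taf13 of TFIID, and RGD1306063. Their log2 differences lay between 0.23 (Polr3d) and 0.34 (Psma3l and RGD1306063).

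Only 3 genes were called lower, and all are weakly expressed. Mapk1ip1 was 5.59 to 8.19 fpkm in WRF rats (median 6.64) and 7.70 to 12.0 fpkm in C rats (median 9.22), a log2 difference of -0.43 ± 0.09. Dfnb31, the scaffold protein whirlin, was 5.73 to 8.27 fpkm against 7.74 to 11.9 fpkm, a log2 difference of -0.35 ± 0.08. Csrnp2 was 1.04 to 1.69 fpkm against 1.65 to 2.52 fpkm. In Dfnb31, C19 and C21 stood highest at 11.9 and 11.7 fpkm, and only C37 lay below the highest WRF rats, WRF54 and WRF55.

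**Figure D2:**
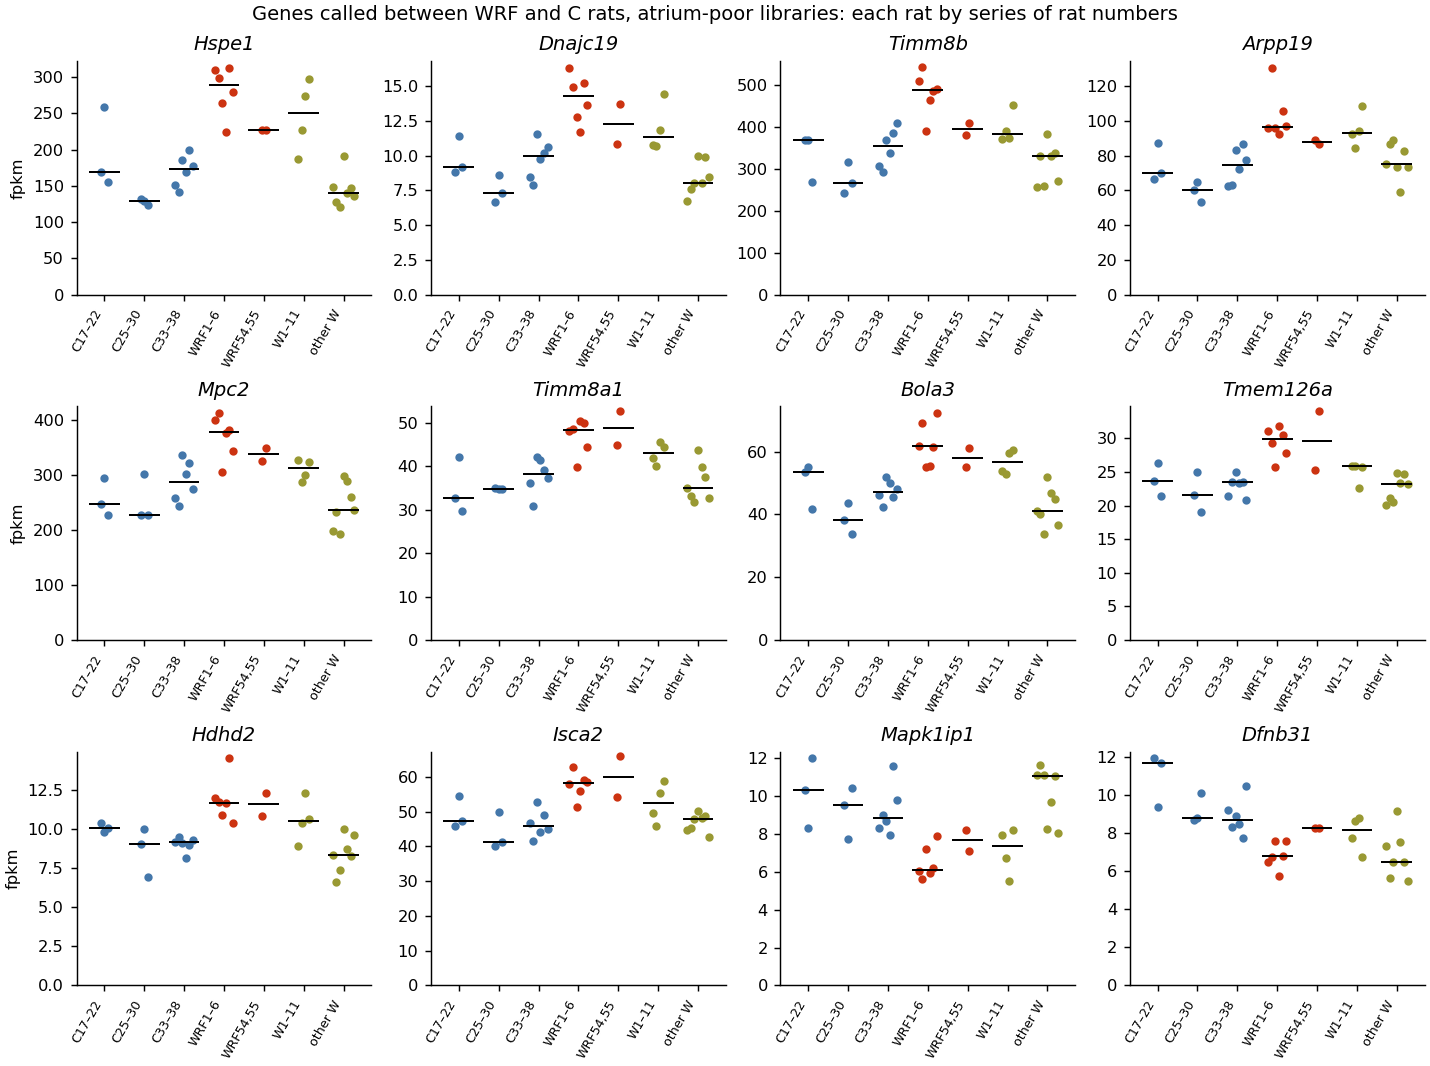
Expression (fpkm) in each kept rat of the 10 genes called higher and 2 called lower that the naming rule selects, with points for rats, bars for medians, and columns for series of rat numbers (C blue, WRF red, W olive). WRF1 to WRF6 lie above most C rats for the genes called higher, and in those genes the medians of the 4 W rats numbered 1 to 11 lie above those of the other 7 W rats.

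Many genes for cytosolic ribosomal proteins, the proteins of the translating ribosome, were slightly higher in WRF rats, though none was called. Of 80 measured, 51 were higher in WRF rats at an unadjusted p under 0.05 and 0 lower, against 9.87% and 3.53% over all entries, and 0 were called. Their median log2 difference was 0.35, against 0.04 over all entries. Rpl39 was 246 to 419 fpkm in WRF rats (median 340) and 134 to 290 fpkm in C rats (median 200), and Rpl38 had medians of 1247 and 794 fpkm, with log2 differences of 0.63 ± 0.15 and 0.61 ± 0.18 (adjusted p = 0.129 and 0.124 in the exact rank-sum test). The list stayed above the median of all entries after median-of-ratios scaling (0.31 against 0.01) and scaling by the sum (0.20 against -0.08). The level of the list in single rats overlapped widely: relative to the mean of the C rats it was 0.01 to 0.72 in WRF rats and -0.67 to 0.44 in C rats. C25 to C30 had the lowest median of the 3 C series, with rats at -0.67 to -0.18, while C33 to C38 ran from -0.25 to 0.44. Without C25 to C30 the number at an unadjusted p under 0.05 fell to 29 and the median to 0.23, and without C33 to C38 it was 75 and 0.53. Ribosomal protein genes have many processed copies that can take reads from them.

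Genes of oxidative phosphorylation came next. Of 77 genes of the respiratory chain and ATP synthase, 35 were higher at an unadjusted p under 0.05, 0 lower, and 1 (Cycs) was called, with a median log2 difference of 0.28. Cox7c, a small subunit of cytochrome c oxidase, was 2170 to 3346 fpkm in WRF rats (median 2726) and 1233 to 2444 fpkm in C rats (median 1962), a log2 difference of 0.53 ± 0.13 (adjusted p = 0.0740, exact rank-sum test). Ndufa6 and Ndufb4 of complex I differed by 0.48 ± 0.12 and 0.44 ± 0.11. By rat the list level was 0.01 to 0.41 in WRF rats and -0.43 to 0.35 in C rats, with C25 to C30 the lowest of the C rats (-0.43 to -0.27). Without that series 21 genes were left at an unadjusted p under 0.05, with a median of 0.16. Of 71 mitochondrial ribosomal proteins 28 were higher, 0 lower, and 1 (Mrpl32) was called, with a median of 0.18. After median-of-ratios scaling 11 were higher and 0 lower, and after scaling by the sum 7 were higher and 1 lower, with a median of 0.032. Mrps18c came next, with medians of 54.99 fpkm in WRF rats and 35.7 fpkm in C rats (0.53 ± 0.11). Without C25 to C30 this list had 15 genes left and a median of 0.08, close to the 0.06 of all entries.

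Other machinery of protein and RNA turnover was nearer to the background of 9.87% higher and 3.53% lower over all entries. Of 39 proteasome subunits 10 were higher and 0 lower at an unadjusted p under 0.05 (median 0.13), with Psma4 at 81.0 fpkm in WRF rats and 65.2 fpkm in C rats. After scaling by the sum the proteasome count became 1 higher and 6 lower. Of 67 spliceosome genes 15 were higher and 1 lower (median 0.12), and apart from the called Sf3b6 they include small Sm and Lsm proteins: Lsm5 had medians of 47.7 and 32.0 fpkm and Snrpg of 110 and 69.4 fpkm. Among 41 genes of glycolysis and the citric acid cycle 2 were higher and 0 lower, and among 43 of fatty acid oxidation 1 was higher and 1 lower. The difference between these lists and the respiratory chain was not tested. Of 50 translation factors 6 were higher, of 45 genes of ribosome biogenesis 7, of 40 antioxidant and glutathione genes 7 (Prdx1, Prdx3, and Gpx1 among them), of 44 genes of DNA replication and the cell cycle 8, and 0 were lower in each. Of 49 genes that fold and export proteins at the endoplasmic reticulum 7 were higher and 1 lower, and of 26 glucocorticoid and FoxO response genes 1 was higher (Trim63, a muscle ubiquitin ligase). These counts depend on the scale: after scaling by the sum they became 1 higher and 4 lower for translation factors, 1 and 2 for ribosome biogenesis, 0 and 3 for antioxidant genes, 2 and 1 for DNA replication, 7 and 5 for the spliceosome, 0 and 10 for fatty acid oxidation, and 0 and 8 for glycolysis and the citric acid cycle.

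**Figure D3:**
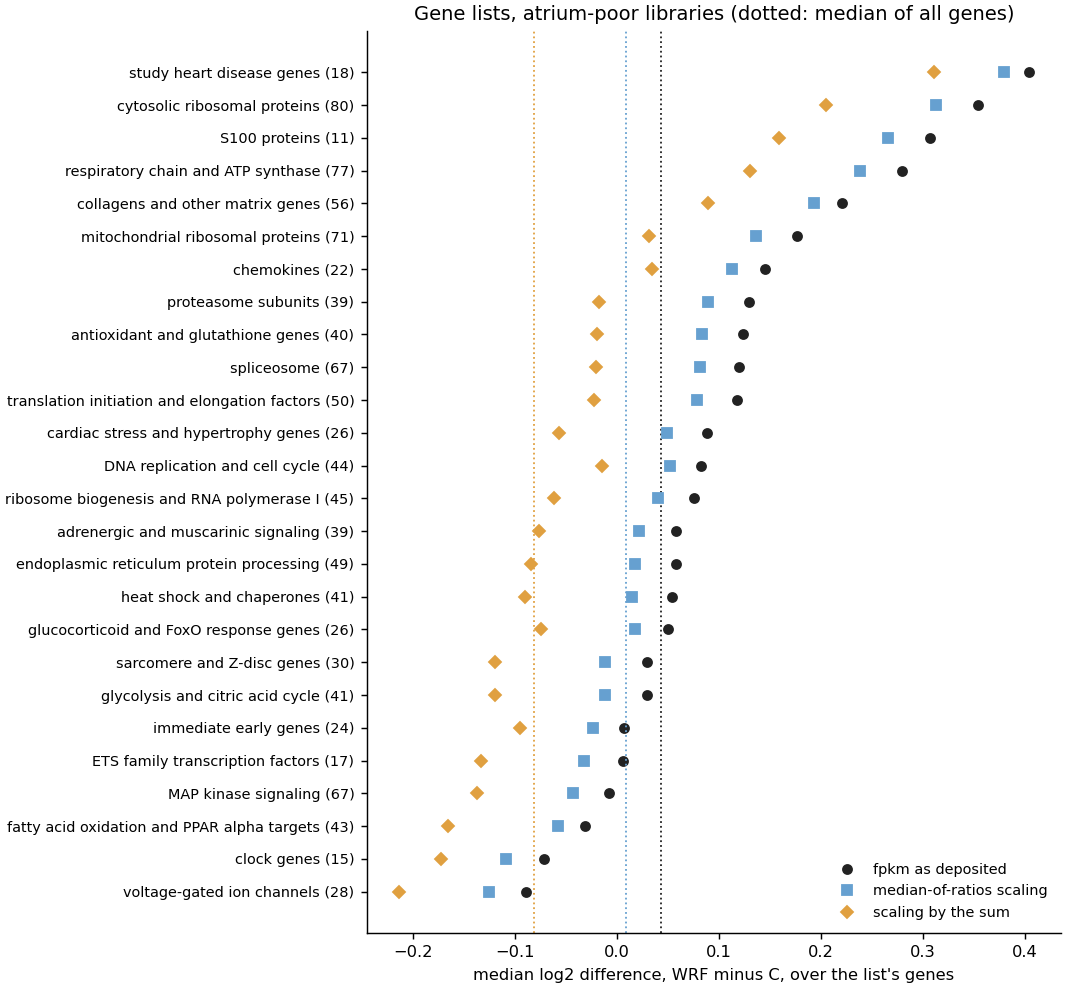
Median log2 difference, WRF minus C, over the measured genes of each of 26 lists (number in brackets) with the values as deposited (circles), after median-of-ratios scaling (squares), and after scaling by the sum (diamonds); dotted lines are the medians of all entries. Disease genes, ribosomal proteins, and the respiratory chain lie right of the line under each scaling, and ion channels lie left of it.

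The 18 heart disease genes that the study displayed were all measured, and all 18 differed in the positive direction. The study chose them on these samples, so their direction is not independent evidence. At an unadjusted p under 0.05, 10 were higher, 0 lower, and 0 were called, with a median log2 difference of 0.40. Postn, which encodes the matrix protein periostin, was 1.38 to 10.4 fpkm in WRF rats (median 3.43) and 0.799 to 2.24 fpkm in C rats (median 1.17), a log2 difference of 0.96 ± 0.22 (adjusted p = 0.1001, exact rank-sum test). WRF5 held the highest value, and WRF2, WRF6, and WRF54 lay inside the C range. S100a4, known as a fibroblast marker, was 44.2 to 87.4 fpkm against 22.8 to 58.8 fpkm, with medians of 62.7 and 40.2 fpkm (0.67 ± 0.16), and S100a6 had medians of 215 and 152 fpkm (0.56 ± 0.17). The chemokines Ccl21, Ccl24, and Ccl9 differed by 0.71 ± 0.24, 0.37 ± 0.12, and 0.43 ± 0.18. Without WRF1 to WRF6, Ccl9 turned to -0.22.

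The collagen genes among them did not pass. Col1a1 was 35.5 to 76.4 fpkm in WRF rats and 26.7 to 57.4 fpkm in C rats, with medians of 51.2 and 41.6 fpkm (0.31 ± 0.16; exact p = 0.0979), and Col1a2 had medians of 37.2 and 31.0 fpkm (0.19 ± 0.13). Eln, elastin, reached 110 fpkm in WRF55, where fat transcripts were also found, against 11.6 fpkm in the lowest WRF rat and a median of 20.1 fpkm. Agt, angiotensinogen, was 33.7 fpkm in WRF55, with a median of 0.859 fpkm in WRF rats and 0.407 fpkm in C rats. Thy1 (0.36 ± 0.10), Fmod (0.78 ± 0.26), and Cilp (0.22 ± 0.09) were higher at an unadjusted p under 0.05, while Timp1, Igf1, Ctsk, S100a10, and S100b did not pass. Of the wider list of 56 collagens and other matrix genes 9 were higher and 0 lower (median 0.22), against 9.87% and 3.53% over all entries. That count was 4 without WRF55, 5 without WRF5, 3 without C33 to C38, and 21 without C25 to C30. The part of fat or liver transcripts in these values was not tested.

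**Figure D4:**
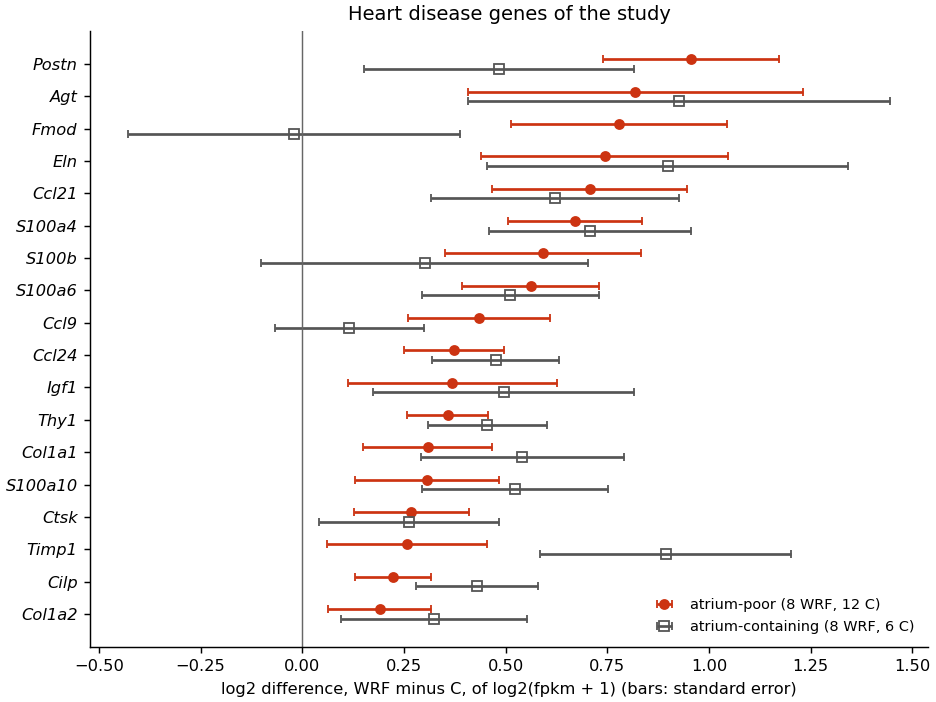
Log2 difference, WRF minus C, with standard errors, of the 18 heart disease genes in the atrium-poor libraries (filled circles, 8 WRF and 12 C rats) and in the atrium-containing libraries (open squares, 8 WRF and 6 C rats). All 18 points of the atrium-poor libraries lie right of 0, with Postn farthest at 0.96, and Fmod lies at -0.02 in the atrium-containing ones.

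Genes of excitation and contraction were mixed. Of 28 voltage-gated ion channel genes 0 were higher and 3 lower at an unadjusted p under 0.05, and 0 were called (median -0.09). Over all entries 9.87% were higher and 3.53% lower. Scn4b, a sodium channel beta subunit, was 11.1 to 23.9 fpkm in WRF rats (median 18.1) and 16.7 to 41.9 fpkm in C rats (median 28.3), a log2 difference of -0.65 ± 0.15 (exact p = 0.000714, adjusted p = 0.0905). All WRF rats lay below the C median. Kcnh2 and Kcne1, a potassium channel and the partner subunit of another, differed by -0.27 ± 0.10 and -0.53 ± 0.15, and Kcne1 is listed at 0 in 1 WRF rat. Among 30 genes of the sarcomere and Z-disc 2 were higher and 2 lower: Smpx had medians of 339 and 255 fpkm (0.38 ± 0.08), whereas Actn2, the Z-disc actinin, had medians of 499 and 572 fpkm (-0.21 ± 0.08) and Myom1 of 102 and 116 fpkm.

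Few signaling genes passed, and the shares of all entries to set beside them are 9.87% higher and 3.53% lower. Of 39 genes of adrenergic and muscarinic signaling 1 was higher and 2 lower at an unadjusted p under 0.05, the lower ones being Pde4a (-0.27 ± 0.09) and the receptor gene Adra1b (-0.23 ± 0.10). Of 67 genes of MAP kinase signaling 1 was higher and 4 lower, with Mapk12 at -0.28 ± 0.11 among the lower ones. None of 17 ETS family factors, 24 immediate early genes, or 15 clock genes passed an unadjusted p under 0.05, with median log2 differences of 0.01, 0.01, and -0.07. The clock genes cycle over the day, and the groups differ in how many rats they hold at each time. Among 41 chaperones 4 were higher, with Hspe1 and Hspd1 among them, and 1 lower, Hsf1, the factor that induces heat shock genes (-0.15 ± 0.07).

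The W rats, which worked with food, were set beside them. At the limma threshold 0 entries were called between W and C rats and 0 between WRF and W rats. Among the 10257 entries, 315 (W against C) and 820 (WRF against W) had an unadjusted limma p under 0.05. Chance alone would give a share of about 0.05 on average. The share for W against C lay below that, and the share for WRF against W above it. Genes vary together within rats, so shares can stray far from 0.05 by chance, and both comparisons use the same W rats. No conclusion is drawn from these shares. For 20 of the 24 called genes the W median lay between those of C and WRF rats. The genes were called for the distance between C and WRF rats, so another group would often lie between them. The share over all entries was not computed. Hspe1 was 121 to 297 fpkm in W rats (median 149), and limma gave a log2 difference of 0.09 for W minus C and 0.61 for WRF minus W (limma, unadjusted p = 0.517 and 0.000354). Dfnb31 and Arpp19 were the 2 called genes for which W and C rats differed at that unadjusted threshold in limma. The W median of Dfnb31 was 7.33 fpkm, against 9.05 fpkm in C rats.

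The W rats were not alike. Kept W rats numbered 1 to 11 (W1, W5, W7, and W11) lay on the WRF side of the other 7 W rats in their medians for 23 of the 24 genes, and on the WRF side of C for all 24, whereas the other W rats did so for 13. How often the medians over all entries lie this way was not computed, so these counts have no background beside them. For Hspe1 the medians were 289 fpkm in WRF1 to WRF6, 227 fpkm in both WRF54 and WRF55, 250 fpkm in W1 to W11, 140 fpkm in the other W rats, and 162 fpkm in C rats. The level of the disease gene list was 0.38 to 0.55 in W1 to W11 and -0.23 to 0.07 in the other W rats, on the scale on which WRF rats lay between 0.11 and 1.05. Alb was high in W1 (181 fpkm) and W7 (159 fpkm), as it was in WRF1 to WRF6, but at 8.73 fpkm in W5 and 6.09 fpkm in W11. The other W rats reached 30.2 fpkm (W38), and C rats reached 106 fpkm (C34). The numbers 1 to 11 occur in W and WRF rats only, no C rat bears one, and the labels do not say what the numbering stands for. Whether these rats share a day, a cohort, or a preparation was not tested. The medians of WRF54 and WRF55 together lay on the WRF side of C for all 24 genes too, which is part of how the genes were called. The C rats entered the calls as well, so the counts of W medians on the WRF side of C are not independent of the calls.

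**Figure D5:**
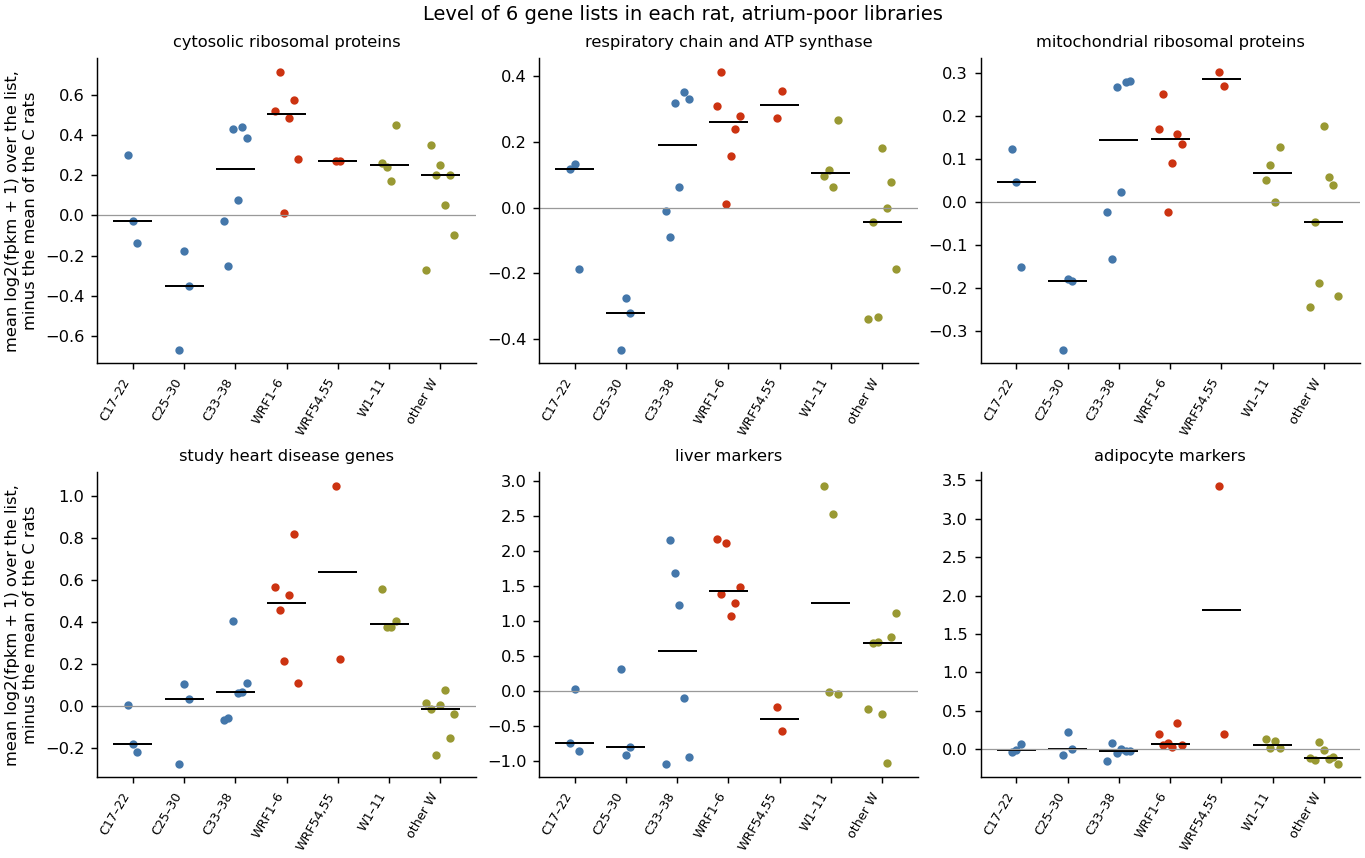
Mean log2(fpkm + 1) over 6 gene lists in each kept rat, minus the mean of the C rats, by series of rat numbers (points for rats, bars for medians). C25 to C30 have the lowest series median for the ribosomal and respiratory lists, WRF1 to WRF6 lie between 1.08 and 2.17 for liver markers, and WRF55 stands alone at 3.43 for adipocyte markers.

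The WRF minus C difference in these libraries, called the effect here, was compared with that in the atrium-containing libraries. Those came from 8 WRF and 6 C rats with at least 500 fpkm of Ckm and 100 fpkm or more of Myl7. No rat of WRF1 to WRF6 or of C33 to C38 was among them. The sets thus differ in rat series as well as in atrial share, and the part of each was not tested. A test of the difference of both effects (limma, adjusted p of at most 0.05) passed for 1281 of 10257 entries (12.5%). In 1164 of them the signs were opposite, and in 1228 the atrium-poor effect was the smaller in size. Only 92 of the 1281 had an unadjusted rank-sum p under 0.05 in the atrium-poor libraries, so most of those signs are uncertain there. None of the 24 genes called in the atrium-poor libraries passed, nor did any of the 18 disease genes, 80 cytosolic ribosomal proteins, or 56 matrix genes. Not passing does not show that the effects are equal. Of the 25 called entries 23 had the same sign in both sets. Hdhd2 was at 0.33 against -0.001 in the atrium-containing libraries (limma, adjusted p = 0.0518 for the difference), and Dfnb31 at -0.35 against 0.05 (adjusted p = 0.115). The atrium-containing libraries were not alike in their atrial share, with Myl7 at 143 to 16085 fpkm in C rats and 674 to 23938 fpkm in WRF rats.

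In 1024 of the 1281 entries the atrium-poor effect lay above the atrium-containing one. Among the named genes with the smallest p were Sntb2, Spopl, and Trove2, with log2 differences of 0.23 ± 0.19, 0.36 ± 0.33, and 0.17 ± 0.29 in the atrium-poor and -1.15 ± 0.20, -1.78 ± 0.33, and -1.73 ± 0.30 in the atrium-containing libraries (adjusted p = 0.0327 for each). Without WRF1 to WRF6 the atrium-poor differences of Sntb2, Spopl, and Trove2 turned to -0.34, -0.63, and -0.66. Without C33 to C38 they turned to -0.080, -0.23, and -0.32. Sntb2 encodes a syntrophin of the dystrophin complex. Lrif1 and Cstf3 were at 0.20 ± 0.10 and 0.28 ± 0.11 against -0.54 ± 0.12 and -0.54 ± 0.13. Fbxw5, an F-box protein, went the other way, at -0.16 ± 0.10 against 0.51 ± 0.11. The share passing was 11 of 39 for adrenergic and muscarinic signaling, 15 of 67 for MAP kinase signaling, and 5 of 17 for ETS factors, lists whose medians were 0.06, -0.01, and 0.01 in the atrium-poor and -0.49, -0.28, and -0.46 in the atrium-containing libraries. It was 8 of 41 for glycolysis and the citric acid cycle and 8 of 50 for translation factors, whose medians were higher in the atrium-containing libraries (0.28 and 0.22) than in the atrium-poor ones (0.03 and 0.12). Over all entries the share passing was 12.5%, and the share for translation factors was near it. The count of entries passing was 1759 after median-of-ratios scaling, 0 after scaling by the sum, and 0 without any of 8 single rats (WRF1, WRF3, WRF4, WRF5, WRF45, WRF46, C27, or C29).

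The adjusted p of every call, 0.0456, lay so close to the threshold that leaving out 1 rat at a time ended all calls for 15 of the 20 rats, 7 WRF and 8 C. The differences themselves stayed in the same direction for all 24 genes in each of these fits, and that of Hspe1 ranged from 0.67 to 0.76, that of Mpc2 from 0.39 to 0.45, and that of Cycs from 0.27 to 0.31. Genes called for nearly separate groups can hardly turn when 1 rat is left out, so the kept direction is no independent support. Calls were left without WRF3 (33), C20 (12), C26 (46), C35 (41), or C37 (22). With a limit of 50 fpkm on Myl7, which removes WRF5 and WRF55, there were 0 calls, 708 entries higher and 449 lower at an unadjusted p under 0.05. Over all 36 C and WRF rats without selection there were 641 calls, 597 higher and 44 lower, and 8 of the 24 genes were among them. With the cosine and sine of the time of day as covariates, limma called 43 entries, which included 17 of the 24 genes. Adding log2(Alb + 1) as a covariate in limma, an alternative chosen after seeing the data, left 917 entries higher and 77 lower at an unadjusted p under 0.05, from 1048 and 362.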

How the data were processed

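RNA-Seq values of 54 rat hearts were read from 1 deposited table of FPKM, which the authors made before deposit from polyA directional libraries with TopHat2 and Cufflinks on rn6 (versions not given in the sources used here), keeping genes above 1 fpkm in at least 18 rats. All 10257 entries meet that filter, and 497 share all values with another entry; lists count each symbol once. The FPKM table holds no counts; the library sizes that the study lists were not used here, so no counting error is given. No values were rescaled; 433 values are 0.

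C and WRF rats with Myl7 under 100 fpkm and Ckm of 500 fpkm or more were compared gene by gene with an exact rank-sum (Mann-Whitney) test in Python 3.11.15 (SciPy 1.17.1, NumPy 2.4.6, pandas 2.3.3) with Benjamini-Hochberg adjustment over all entries. Sizes with standard errors, and the test of the difference of effects, were obtained in R 4.3.3 with limma 3.58.1, fitting a variance trend to log2(fpkm + 1). These sizes understate changes of weakly expressed genes. Both tests were tried on simulated data, with genes drawn independently and planted differences larger than any called here. That trial does not measure power or error at the sizes reported. Separate animals are the replicates.

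Times are those in the rats' titles; for 12 WRF rats, 2 of them kept, other labels give another time, used as an alternative. The rats, the 45 gene lists, and the tests were chosen with earlier results of these data known. Named genes are the 10 called higher and 10 lower with the largest ratio of medians (mean of at least 5 fpkm, no placeholder symbol), up to 4 per list, the heart disease genes, markers, 6 genes with the smallest p for the difference of effects, and clock genes; other called genes, Sdhd, and list members beyond the 4 were named after their values were seen. Further alternatives are given in the closing section. Figures were drawn with Matplotlib 3.10.9.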

Additional observations from a re-analysis of the deposited data

Results flagged for a closer look

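In 76 named genes the 8 WRF rats were checked for 1 rat far from the others, by the gap to its nearest neighbour as a share of the range; chance alone gives about 1 in 20 groups, and 11 were found. The high ones were Arpp19 in WRF2 (130 fpkm), Hdhd2 in WRF5 (14.6 fpkm), Cycs in WRF54 (1022 fpkm), Fmod (10.1 fpkm) and Postn (10.4 fpkm) in WRF5, and in WRF55 Agt (33.7 fpkm), Eln (110 fpkm), Cfd (70.3 fpkm), and S100b (6.74 fpkm). The low ones, all in WRF2, were Csrnp2 (1.04 fpkm) and Hspd1 (140 fpkm). The 4 high values of WRF55 stood in the library that also held 103 fpkm of Adipoq; the part of fat tissue in them was not tested.

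For 9 named genes the WRF minus C effect differed between the atrium-poor and the atrium-containing libraries (limma, adjusted p of at most 0.05). The atrium-poor minus atrium-containing log2 difference was -0.34 for Hsf1, -0.98 for Kcne1, -0.46 for Actn2, 1.39 for Sntb2, 2.14 for Spopl, 0.74 for Lrif1, 1.90 for Trove2, 0.81 for Cstf3, and -0.67 for Fbxw5. Over all entries 1281 such differences passed as deposited, 1759 after median-of-ratios scaling, and 0 after scaling by the sum. No atrium-containing library came from WRF1 to WRF6 or from C33 to C38, and the part of rat series was not tested.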

How the results depend on the processing

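Main counts were 22 entries called higher, 3 called lower, and 1012 higher and 362 lower at an unadjusted p under 0.05. No entry was called (0 higher, 0 lower) after median-of-ratios scaling, after scaling by the sum, with Myl7 under 50 fpkm, without any one of the 5 series, or in limma as such, with either scaling, with a pseudocount of 0.1, with the 6 times as a factor, or with log2(Alb + 1), the last chosen after seeing the data. Calls were 53 higher and 7 lower among entries with a mean of at least 5 fpkm, 27 and 1 with Myl7 under 200 fpkm, 597 and 44 over all C and WRF rats, 38 and 5 in limma with the title time, and 29 and 9 with the time of the other labels. Ckm of 1000 fpkm or more changed nothing.

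At an unadjusted p under 0.05, median-of-ratios scaling gave 687 higher and 734 lower (limma 711 lower), and scaling by the sum 306 and 1027 (limma 292 and 1064), against 73.7% higher in the main test. The number lower was 194 with a mean of at least 5 fpkm, 216 without C17 to C22, 649 without C33 to C38, and 77 with log2(Alb + 1). Without WRF1 to WRF6 there were 441 and 180, and over all C and WRF rats 2198 higher. The median log2 difference became -0.081 after scaling by the sum. The 1281 differences of effect became 1759 after median-of-ratios scaling and 0 after scaling by the sum. Leaving out 1 rat at a time gave 0 to 43 called higher, 0 to 4 called lower, 770 to 1104 higher and 226 to 424 lower at an unadjusted p under 0.05, and 0 to 2272 differences of effect, the last without WRF55. The causes were not tested.

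Some single genes turned. Scaling by the sum gave -0.035 for Hspd1 and -0.056 for Sdhd. The set of all C and WRF rats holds WRF51 and WRF62, both under the Ckm minimum. In that set Cycs was at -0.059, Hsf1 0.046, Smpx -0.13, Sdhd -0.092, Sntb2 -0.27, Spopl -0.43, Trove2 -0.52, and Fbxw5 0.00411. Without WRF1 to WRF6, Ccl9 was at -0.22, S100a10 -0.000497, Actn2 0.018, Dpt -0.026, Sntb2 -0.34, Spopl -0.63, Trove2 -0.66, and Fbxw5 0.18. Without C33 to C38, Sntb2 was at -0.080, Spopl -0.23, and Trove2 -0.32. Of the 24 called genes 23 kept their direction in every alternative and with each rat left out, Cycs being the exception. Since the genes were called on the same rats, these kept directions are not independent support.

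No paired analysis was possible because C and WRF rats were separate animals and the labels mark no pairs. The FPKM values hold no counts, so no counting error was set beside the values of weakly expressed genes.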
